A study of Mus musculus with 4 samples.

Results

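Malat1, Neat1, Gas5, Snhg1, Snhg3, Snhg4, Snhg5, Snhg8 and Snhg12 are 9 noncoding genes, taken by name from 55487 genes measured in each of 4 RNA sequencing libraries of mouse skin cells labelled as regulatory T cells. Malat1 and Neat1 make long RNAs that stay in the nucleus, and the other 7 genes are hosts whose introns hold small nucleolar RNAs (snoRNAs). Malat1 was the highest of the 9 in every library at 1074 to 4266 TPM, the share of transcripts scaled for length to a fixed total per library, Gas5 followed at 173 to 577 TPM, and the other 7 genes lay below 243 TPM. Snhg4 was at 52.1 and 92.6 TPM without ultraviolet B (UVB) and at 0 and 0.156 TPM with it. The genes were selected on their TPM in these same libraries, and earlier work on them had named Snhg4 on the lower side for UVB. Levels and differences are therefore given as a description, and the values of the fit over all genes are printed without reading support from them.

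The mice had psoriasiform dermatitis, brought about by a daily 60 mg of Aldara, a cream that holds 5% imiquimod, on shaved back skin. The non-UVB group comprised 2 libraries from mice without irradiation, and the UVB group comprised 2 libraries from mice given narrow-band UVB on 3 occasions. The sources used here do not give strain, genotype, age, sort gates or pooling of animals, and nothing says that the libraries numbered 1 and 2 came from separate animals. A p-value here therefore reflects how far these libraries spread, and that spread may be technical.

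Malat1 RNA gathers at nuclear speckles, bodies rich in splicing factors, whereas Neat1 is the architectural RNA of paraspeckles, and only its long isoform can build them. Host genes of the Snhg group are transcribed and spliced like messenger RNA genes. Their introns are trimmed to snoRNAs, which guide chemical modification of ribosomal and other RNAs, while the spliced exons are often removed by nonsense-mediated decay. Many hosts start transcription at a cytosine within a run of pyrimidines, the terminal oligopyrimidine start shared with ribosomal protein genes. Gas5 is named for its build-up in growth-arrested cells.

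The libraries differed in cell markers along their number. Foxp3, the defining factor of regulatory T cells, was listed at 0 TPM in non-UVB 1 and stood at 3.49, 19.4 and 19.3 TPM in UVB 1, non-UVB 2 and UVB 2. The 6 gamma-delta T cell genes found of 7 listed, none at 0, summed to 8820 and 8344 TPM (number 1) versus 175 and 302 TPM (number 2), non-UVB given first. The 8 keratinocyte genes summed to 195 and 409 TPM against 3349 and 2852 TPM. Krt15 was listed at 0 in both libraries numbered 1. The 12 macrophage and dendritic cell genes summed to 9940 and 4098 TPM (non-UVB) versus 18418 and 10086.5 TPM (UVB). The haemoglobin share of TPM was 11.7% in non-UVB 1 and at most 0.441% elsewhere, and mitochondrially encoded genes took 0.487% to 6.42%.

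The genomic start in RefSeq (GRCm38.p6) is shown for 7 of the 9 genes. Neat1 and Snhg4 are left out, which does not mean that RefSeq lacks a start for them. The stretches are shown because they display a feature of the hosts that the choice of genes did not use. Each holds the 45 bases before the RefSeq start and the 25 from the start on, 5′ to 3′ on the strand of the gene. Capitals mark the letters TATA where they lie wholly within 40 to 20 bases before the start. They also mark the first run of at least 5 pyrimidines counted from a C within 10 bases of the start, whatever base comes before that C. Gas5 has a further RefSeq start upstream, where neither TATA nor the pyrimidine run was found. The start shown lies within 25 bases of the start of 14 of the 25 GENCODE M21 transcripts of Gas5, and the upstream one of 1.
Gas5, chr1:161035121-161035190, plus strand: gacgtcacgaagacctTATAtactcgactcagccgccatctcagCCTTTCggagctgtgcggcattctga
Snhg1, chr19:8723442-8723511, plus strand: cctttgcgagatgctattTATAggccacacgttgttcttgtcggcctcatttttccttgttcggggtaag
Snhg3, chr4:132353662-132353731, minus strand: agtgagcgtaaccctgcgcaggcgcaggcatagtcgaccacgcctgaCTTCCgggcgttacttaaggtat
Snhg5, chr9:88522873-88522942, minus strand: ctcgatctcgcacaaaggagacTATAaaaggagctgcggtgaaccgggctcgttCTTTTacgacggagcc
Snhg8, chr3:123508312-123508381, minus strand: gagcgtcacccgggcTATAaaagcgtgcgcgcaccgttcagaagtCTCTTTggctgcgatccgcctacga
Snhg12, chr4:132308633-132308702, plus strand: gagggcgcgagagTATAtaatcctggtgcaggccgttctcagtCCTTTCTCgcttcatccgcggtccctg
Malat1, chr19:5802648-5802717, minus strand: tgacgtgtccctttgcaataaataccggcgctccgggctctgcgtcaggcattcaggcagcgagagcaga

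Gas5, Snhg5, Snhg8 and Snhg12 held both features in these windows, Snhg1 held TATA alone, Snhg3 held the pyrimidine run alone, and Malat1 held neither. TATA reads the same on both strands. It lay in that window in 5.49% of 32851 RefSeq promoters of the same length. The pyrimidine run was found in 30.7% of them on the gene's strand and in 34.8% on the other strand, and both features together in 1.79%. Of 13 promoters of other noncoding snoRNA hosts, 1 had TATA and 5 had the run. The letters and windows were chosen after the sequences had been seen, so these shares are a description of the starts shown.

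**Figure D1:**
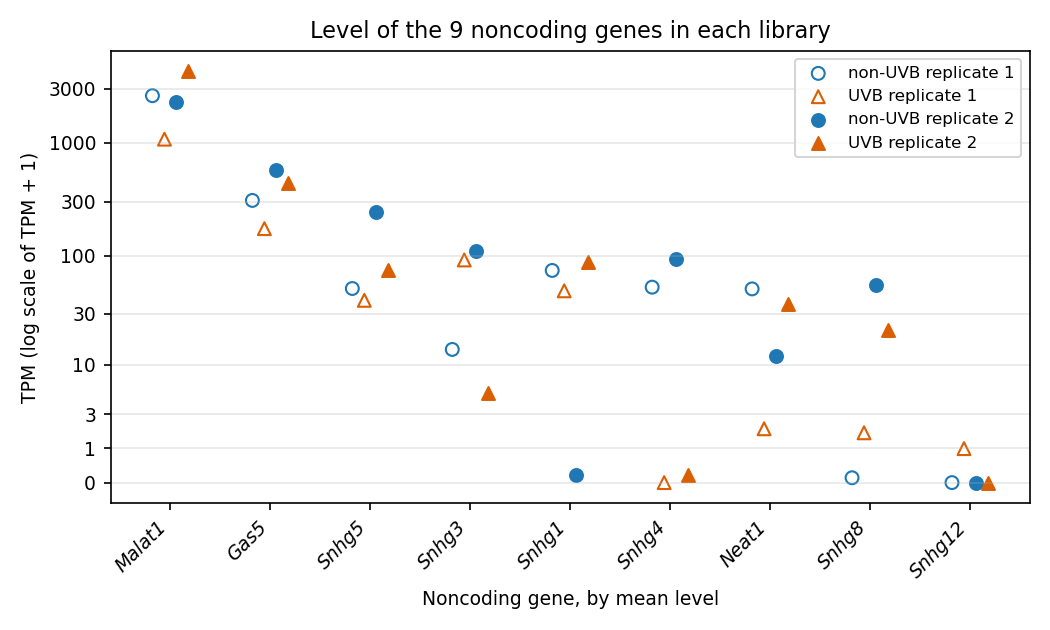
Level of each of the 9 genes (horizontal axis, ordered by mean) in each library (vertical axis, TPM on a log scale of TPM + 1). Circles are non-UVB and triangles are UVB libraries, open for number 1 and filled for number 2. Malat1 and Gas5 stay above 173 TPM in every library, while Snhg1, Snhg4 and Snhg8 each have at least 1 library near 0.

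Malat1 and Neat1 are neighbours on chromosome 19, 22 kb apart on the minus strand. Malat1 (ENSMUSG00000092341, 5795690 to 5802672) reached 2599 and 2299.7 TPM in non-UVB 1 and 2, and 1074 and 4266 TPM in UVB 1 and 2. The UVB libraries were thus the lowest and the highest of the 4, and the non-UVB libraries lay between them. Relative levels of these RNAs in a bulk library do not tell apart fewer cells of a type from less RNA per cell. Among all genes Malat1 ranked 26th and 43rd without UVB and 111th and 20th with it, and it was the first of all annotated long noncoding RNAs in each library. On the log2(TPM + 1) scale the UVB difference was -0.19 ± 0.75 (SE, n = 2 per group), and the Benjamini-Hochberg p of limma was 0.9998. It turned to 0.80 with UVB 1 left out and was -1.19 with UVB 2 left out. Within the libraries numbered 1 the difference was -1.27, and within those numbered 2 it was 0.89.

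Neat1 (ENSMUSG00000092274, 5824708 to 5845478) reached 50.2 and 12.1 TPM in non-UVB 1 and 2, and 1.99 and 36.4 TPM in UVB 1 and 2. UVB 1 was the lowest for both nuclear RNAs. The Neat1 difference was -1.29 ± 1.76 log2(TPM + 1) (SE, n = 2 per group, limma adjusted p = 0.9998), and it turned to 0.53 with UVB 1 left out. It was -0.31 with non-UVB 1 left out and -3.12 with UVB 2 left out. Malat1 exceeded Neat1 in TPM by 51.7-fold in non-UVB 1, 541-fold in UVB 1, 190.2-fold in non-UVB 2 and 117-fold in UVB 2.

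The order of libraries for Neat1 depended on the unit. The deposited tables also give coverage, the mean read depth over the bases of a gene, which was divided by the sequenced gigabases behind each library's values. On that scale Neat1 stood at 14.9 and 8.42 without UVB and at 1.28 and 24.8 with it. UVB 2 was then the highest library, as it was for Malat1, in place of non-UVB 1. The ratio of Malat1 to Neat1 in coverage was 115 in non-UVB 1, beside 51.7 in TPM, and 118 in UVB 2. The ratio of this coverage to FPKM gives the mean length of the transcripts to which reads were assigned, as a share of all exon bases of the gene. For genes with 1 transcript in GENCODE M21 it was above 99% in 99.9% to 100.0% of cases in the 4 libraries. For Neat1 it was 44.8% in non-UVB 1 and 100.0%, 100.0% and 99.4% in UVB 1, non-UVB 2 and UVB 2. GENCODE lists a Neat1 transcript of 20771 bases and a short one of 3004 bases, which is 14.5% of the exon bases. Reads of non-UVB 1 were thus assigned in part to shorter transcripts, and those of the other 3 libraries almost wholly to the longest. Neat1 values rested on the equivalent of 10589, 1119, 4311 and 12280 reads of 100 bp in the libraries ordered as non-UVB 1, UVB 1, non-UVB 2, UVB 2. For Malat1 the ratio was 100.0% in every library, so its TPM and coverage ranked the libraries alike. Genes overlapping Malat1 or Neat1, or starting within 2 kb, reached at most 0.594 TPM.

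**Figure D2:**
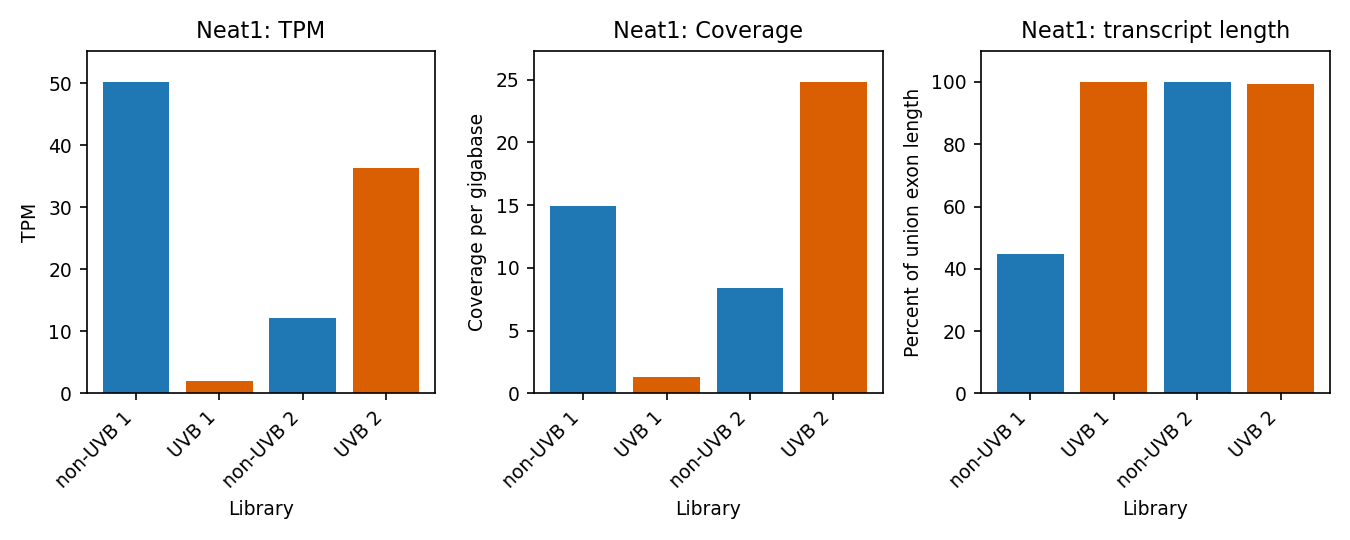
Neat1 in the 4 libraries (horizontal axes) as TPM, as coverage per gigabase, and as the mean length of the assigned transcripts in percent of the exon bases. Bars are single libraries, blue for non-UVB and orange for UVB, and only non-UVB 1 has a length share below 99% (44.8%), where TPM is highest at 50.2 while coverage is highest in UVB 2 at 24.8.

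Gas5 (ENSMUSG00000053332, chromosome 1, 161034422 to 161038539) was the most abundant host. It reached 308 and 577 TPM in non-UVB 1 and 2, and 173 and 442 TPM in UVB 1 and 2. The UVB library was the lower one within each number, by 0.83 and 0.38 log2, but UVB 2 exceeded non-UVB 1, so the groups overlapped. The UVB difference was -0.60 ± 0.67 log2(TPM + 1) (SE, n = 2 per group, limma adjusted p = 0.9998) and turned to 0.07 with UVB 1 left out. It was -1.06 with non-UVB 1 left out, -0.15 with non-UVB 2 left out and -1.28 with UVB 2 left out. Zbtb37, a gene of the opposite strand that overlaps Gas5, was at 21.8 TPM in non-UVB 1 and at most 0.162 TPM elsewhere. By number the libraries did not overlap, with a mean of 241 ± 95.4 TPM in those numbered 1 and 509.7 ± 95.01 TPM in those numbered 2 (SD, n = 2).

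Snhg5 (ENSMUSG00000097195, chromosome 9, 88495268 to 88523562), host of Snord50a and Snord50b, had 50.7 and 243 TPM (non-UVB) versus 39.6 and 74.2 TPM (UVB). Non-UVB 2 stood far above the other 3 libraries, and UVB 2 exceeded non-UVB 1. Reads were assigned to transcripts averaging 27.5% of the exon bases in non-UVB 2 and 40.1% to 44.4% in the others. In coverage per gigabase Snhg5 stood at 13.5 and 46.4 without UVB and at 11.4 and 21.4 with it. The difference was -1.02 ± 1.01 log2(TPM + 1) (SE, n = 2 per group, limma adjusted p = 0.995). It turned to 0.10 with non-UVB 2 left out and was -2.14 with non-UVB 1 left out and -0.58 with UVB 1 left out. The gene's coordinates in the files differ from those of GENCODE M21, so no read equivalent was computed.

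Snhg4 was the 1 gene of the 9 with no overlap in TPM between the groups. Of its IDs, ENSMUSG00000117869 (chromosome 18, 35553371 to 35558316) carried the values, and ENSMUSG00000117694, a longer locus of the same name that GENCODE types as protein-coding, was listed at 0 in every library. The 52.1 and 92.6 TPM of non-UVB 1 and 2 rested on the equivalent of 1410.2 and 2519 reads, and the 0.156 TPM of UVB 2 on 2.85. UVB 1 was listed at 0. The fitted difference was -6.03 ± 1.11 log2(TPM + 1) (SE, n = 2 per group), with a limma adjusted p of 0.223. It depends on the pseudocount and is no bound. Over all genes, 0% of 10286 passed that test for UVB, 11.3% had an unadjusted p under 0.05, 9.71% had lower, non-overlapping UVB libraries and 32.9% had non-overlapping libraries in either direction. Snhg4 passed the filter on low values only through the non-UVB libraries, where it is high. Inside the Snhg4 locus, Snora74a, an annotated snoRNA gene, was listed at 0 in 3 libraries and at 20.3 TPM in UVB 2. Gm49347, which overlaps it, was at 3.98 TPM in that library and at 0 in the others. In UVB 1 every gene overlapping Snhg4 was listed at 0. Reads of a host and of a gene inside it could be split differently between libraries, which was not tested. The sources used here do not give strandedness.

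Snhg1, Snhg3 and Snhg8 each had a group whose libraries stood far apart. Snhg1 (ENSMUSG00000108414, chromosome 19, 8723475 to 8726443), host of Snord22, was at 73.6 and 0.155 TPM (non-UVB) versus 48.3 and 87.3 TPM (UVB). The low value of non-UVB 2 rested on the equivalent of 3.31 reads, against 948 to 1527 in the other 3 libraries. The difference was 2.83 ± 2.31 log2(TPM + 1) (SE, n = 2 per group, limma adjusted p = 0.958) and turned to -0.18 with non-UVB 2 left out. In coverage per gigabase, a scale added after seeing the data, Snhg1 stood at 10.4 and 0.0452 without UVB and at 12.2 and 13.4 with it, so that its groups no longer overlapped. Reads were assigned to transcripts averaging 21.3% and 22.4% of its exon bases in non-UVB 1 and UVB 2 and 39.3% in UVB 1. Slc3a2, a subunit of the amino acid transporter CD98 that starts beside Snhg1 on the opposite strand, had 491 and 291 TPM (non-UVB) versus 498 and 555 TPM (UVB).

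Snhg3 (ENSMUSG00000085241, chromosome 4, 132348014 to 132353686), host of Snora73a and Snora73b, reached 14.0 and 109 TPM in non-UVB 1 and 2, and 91.2 and 5.22 TPM in UVB 1 and 2. UVB 1 and non-UVB 2 were high and the other 2 low, so neither UVB nor number ordered them. The difference was -0.76 ± 1.88 log2(TPM + 1) (SE, n = 2 per group, limma adjusted p = 0.9998). It turned to 0.68 with non-UVB 2 left out and to 1.19 with UVB 2 left out, and was -2.20 and -2.70 with non-UVB 1 and with UVB 1 left out. The locus overlaps Rcc1, the exchange factor of the nuclear GTPase Ran, on the same strand. Rcc1 was at 0.00305 and 0.151 TPM (non-UVB) versus 37.3 and 71.1 TPM (UVB). Gm17300, on the opposite strand, stood at 20.96 and 0.49 TPM against 0 and 10.2 TPM. Division of reads among these overlapping genes is uncertain.

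Snhg8 (ENSMUSG00000104960, chromosome 3, 123507552 to 123508404), host of Snora24, reached 0.103 and 54.5 TPM in non-UVB 1 and 2, and 1.75 and 21.4 TPM in UVB 1 and 2. These rested on the equivalent of 1.81, 495, 36.9 and 158 reads in the same order. The transcripts assigned averaged 91.0% of the exon bases in both libraries numbered 1, and 62.0% and 53.1% in non-UVB 2 and UVB 2. The UVB difference was 0.0048 ± 2.52 log2(TPM + 1) (SE, n = 2 per group, limma adjusted p = 0.9998), turned sign in 5 of 11 settings, and was -2.82 and 2.83 with non-UVB 1 and with non-UVB 2 left out. Snhg12 (ENSMUSG00000086290, chromosome 4, 132308623 to 132311024) was listed at 0 in 3 libraries and at 0.995 TPM in UVB 1. It was the 1 gene of the 9 that did not reach 1 TPM in 2 libraries and was not tested.

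**Figure D3:**
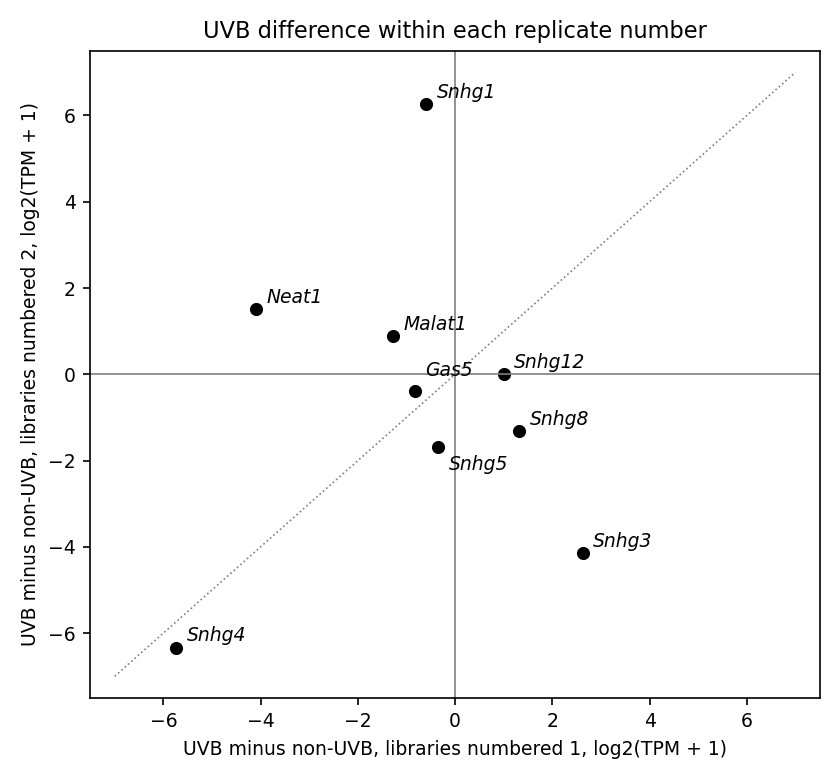
UVB minus non-UVB difference of each gene on the log2(TPM + 1) scale, in the libraries numbered 1 (horizontal axis) and numbered 2 (vertical axis). Each point is 1 gene and 1 pair of libraries per axis, and the dotted line marks equal differences. Gas5, Snhg4 and Snhg5 lie below 0 on both axes, and Malat1, Neat1, Snhg1, Snhg3 and Snhg8 have opposite signs.

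Within both replicate numbers the UVB library was lower for 3 of the 8 tested genes (Gas5, Snhg4 and Snhg5), where 17.7% of all tested genes were. It was higher within both for 0 of 8, against 34% of all genes, and the signs were opposite for 5, against 46.1%. With UVB 6 of the 8 had a lower mean, where 39% of all 10286 genes did, and the median difference was -0.68 log2 for the 8 and 0.26 for all genes. After quantile normalization these medians lay at -1.01 and -0.19, and after median scaling at -1.31 and -0.27. Under both scalings 7 of the 8 had a lower mean, since Snhg8 turned negative. Snhg4 is part of these counts and medians and passed the filter on low values only through the non-UVB libraries, where it is high. Earlier work had also named it on the lower side for UVB, so nothing is read from these counts or medians.

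A further comparison set the libraries numbered 2 against those numbered 1. Gas5, Snhg5 and Snhg8 were higher in both libraries numbered 2 than in either numbered 1, 3 of 8 tested genes, where 22.5% of all genes did so and 40.9% did not overlap in either direction. The differences were 1.12 ± 0.42, 1.56 ± 0.76 and 4.34 ± 1.25 log2(TPM + 1) (SE, n = 2 per number). Their limma adjusted p values were 0.424, 0.556 and 0.299, and over all genes 0% passed the test and 12.5% had an unadjusted p under 0.05. Each of the 3 stayed higher when any 1 library was left out, at 0.71 to 1.54 for Gas5, 0.72 to 2.41 for Snhg5 and 3.68 to 5.00 for Snhg8. The lowest Snhg5 value was that with non-UVB 2 left out and the highest that with UVB 2 left out. Within both groups number 2 was the higher one for 4 of 8 (Gas5, Snhg4, Snhg5 and Snhg8) against 32.6% of all genes, the lower one for 0 of 8 against 24.4%, and opposite for 4 against 40.4%. For Snhg4 the UVB values behind this were 0 TPM in number 1 and 0.156 TPM in number 2, too low to give a direction. The Gas5 value of 0.71 was that with UVB 1 left out. For Malat1 the difference was 0.91 ± 0.59 (limma adjusted p = 0.675), and it was 0.27 with UVB 1 left out, 0.46 with UVB 2 left out and 1.54 with non-UVB 1 left out.

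For the other tested genes the number difference turned sign when a single library was left out. Neat1 stood at 0.84 ± 1.82 log2(TPM + 1), and at -1.21 with UVB 1 left out. Snhg1 stood at -2.59 ± 2.39, and at 0.54 with non-UVB 2 left out. Snhg3 stood at -0.51 ± 1.89, and at 0.80 and 1.56 with UVB 1 and with UVB 2 left out. Snhg4 stood at 0.51 ± 3.26, and at -2.35 and 3.68 with UVB 1 and with UVB 2 left out. Cell markers moved with the number as well. Of 6 regulatory T cell genes 5 were higher in both libraries numbered 2, and the 6 summed to 1475 and 1826 TPM (number 1) versus 7311 and 5322 TPM (number 2), non-UVB given first. So were 6 of 8 keratinocyte genes, while 6 of 6 gamma-delta T cell genes and 8 of 12 macrophage and dendritic cell genes were lower in both. The T cell list was split, with 4 of 9 genes higher and 2 lower in both libraries numbered 2. Over all tested genes 22.5% were higher in both and 18.5% lower in both. Of 6 neutrophil genes only 2 were higher in both libraries numbered 2, and 0 were lower in both. The 6 summed to 548 and 384 TPM (number 1) versus 3255 and 2341 TPM (number 2), and most of each sum came from those 2 genes. The mitochondrial share was also higher in both libraries numbered 2. The part of these in the differences of Gas5, Snhg5 and Snhg8 was not tested.

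By mean TPM over the 4 libraries the order was Malat1 (2560 ± 1315, SD over 4 libraries), Gas5 (375 ± 174), Snhg5 (102 ± 95.02), Snhg3 (54.8 ± 52.8), Snhg1 (52.3 ± 38.4), Snhg4 (36.2 ± 44.9), Neat1 (25.2 ± 22.1), Snhg8 (19.4 ± 25.3) and Snhg12 (0.249 ± 0.498). Malat1 exceeded Gas5, and Gas5 exceeded Snhg5, in all 4 libraries. From Snhg5 to Snhg8 each gene exceeded the next in only 2 or 3 of the 4 libraries, so those neighbours in the order did not separate beyond their spread. The 9 genes took 0.315% and 0.339% of TPM in non-UVB 1 and 2 and 0.143% and 0.493% in UVB 1 and 2. Malat1 alone made up 67.9% to 86.5% of that sum. The 7 hosts summed to 499 and 1075 TPM (non-UVB) versus 355 and 631 TPM (UVB), and UVB 2 exceeded non-UVB 1.

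Of 30 entries annotated as snoRNA genes within the hosts, 4 reached 1 TPM in any library, namely Gm25894 in Snhg1 (3.79 TPM at most), Snora73b in Snhg3 (4.16 TPM), and Snora74a (20.3 TPM) and an entry named Mir1949 (1.95 TPM) in Snhg4. All 10 entries in Gas5 stayed at or below 0.618 TPM, and all 5 in Snhg12 were listed at 0. The 4 were chosen after their values had been seen. The entries are short, and how well these libraries capture such RNAs was not tested. Low values therefore do not show that the snoRNAs were absent from the cells.

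Of 14 other noncoding snoRNA hosts, 13 were found and 8 tested, and 0 of 8 passed the limma test for UVB. Their median difference was 0.85 log2 beside 0.26 for all genes. Snhg15 was the most abundant, at 189 and 347 TPM (non-UVB) versus 199.999 and 129 TPM (UVB). Zfas1, host of snoRNAs of the Snord12 family, stood at 36.4 and 52.2 TPM against 76.1 and 65.0 TPM. Snhg17 was at 0.0245 and 0.0324 TPM (non-UVB) versus 42.8 and 26.4 TPM (UVB), and Epb41l4aos at 0.0976 and 0.405 TPM against 47.1 and 21.7 TPM. Both were chosen after their values had been seen, and with Zfas1 they were the 3 of 8 hosts with higher, non-overlapping UVB libraries, where 23.2% of all genes were so. Snhg17 and Epb41l4aos passed the filter on low values only through the UVB libraries, where they are high, so nothing is read from this count or from the list's median. The limma adjusted p values were 0.223, 0.223 and 0.977 for Snhg17, Epb41l4aos and Zfas1. Snhg4 was the opposite case, with near-0 values in both UVB libraries.

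**Figure D4:**
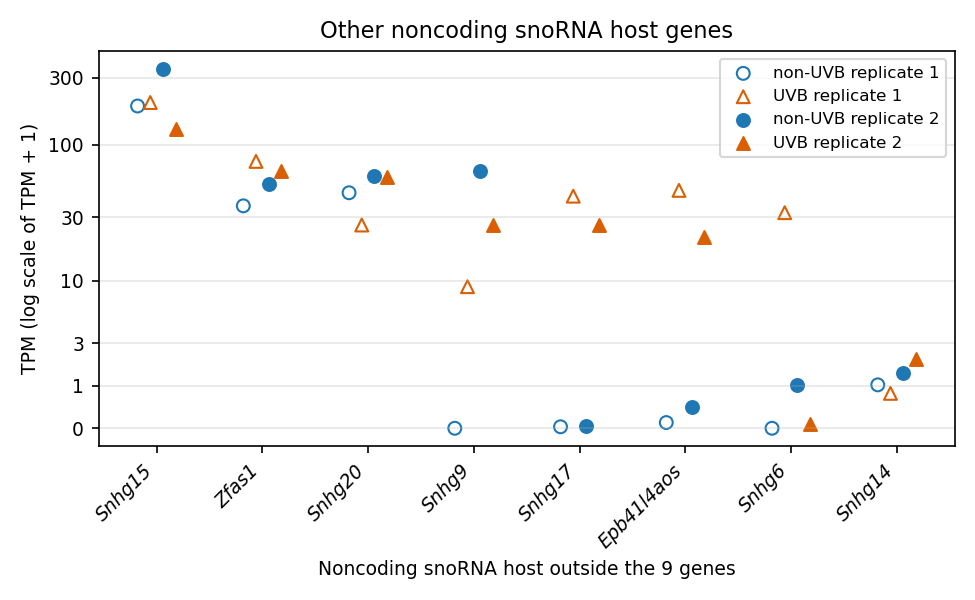
Level of the 8 tested noncoding snoRNA hosts outside the 9 genes (horizontal axis, ordered by mean) in each library (vertical axis, TPM on a log scale of TPM + 1). Circles are non-UVB and triangles UVB libraries, open for number 1 and filled for number 2. Snhg17 and Epb41l4aos lie above 21 TPM in both UVB libraries and below 1 TPM in both non-UVB libraries.

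Proteins that work with these RNAs were described from lists, and 0 members of any list passed the limma test for UVB or for number. Of 17 tested snoRNP proteins and assembly factors, 12 had a higher mean with UVB (70.6%, beside 61% of all genes). The median difference of the list was 1.19 log2, beside 0.26 for all genes. Of these 17, 2 passed the filter only through the UVB libraries, where they are high, so nothing is read from this share or median. Nhp2, a core protein of H/ACA snoRNPs, was at 191 and 262 TPM (non-UVB) versus 190.3 and 203 TPM (UVB), and Nop56, a core protein of C/D snoRNPs, at 217 and 145 TPM against 178 and 47.8 TPM. Of 16 paraspeckle proteins 7 had a higher mean (43.8%), with a median of -0.05. Hnrnpk, an RNA-binding protein of paraspeckles, stood at 646 and 489 TPM against 641 and 890 TPM, and Ewsr1 at 447 and 158 TPM against 277 and 351 TPM. Of 22 nuclear speckle and splicing proteins 11 had a higher mean (50%), with a median of -0.09. Srsf7, a splicing factor, stood at 653, 514 and 653 TPM in non-UVB 1, UVB 1 and UVB 2. In non-UVB 2 it was at 4.29 TPM. Srsf2 was at 298 and 308 TPM (non-UVB) versus 343 and 511 TPM (UVB).

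Genes tied to host turnover and to pyrimidine-rich starts came next. Of 15 tested nonsense-mediated decay factors 9 had a higher mean with UVB (60%, beside 61% of all genes), with a median of 0.46 log2. Eif4a3, a core protein of the exon junction complex, stood at 176 and 75.1 TPM against 157 and 207 TPM, and Magoh, its partner, at 65.3 and 148 TPM against 121 and 75.0 TPM. Of 24 genes with terminal oligopyrimidine starts 19 had a higher mean with UVB (79.2%, beside 61% of all genes), with a median of 0.38. Of the 24, 12 were higher in both libraries numbered 2 than in either numbered 1 (50%, beside 22.5% of all genes), with a number median of 0.44 beside 0.10 for all genes. Rpl32, a ribosomal protein, was at 1053 and 1528 TPM (number 1) versus 2669 and 1903 TPM (number 2), non-UVB given first. Rplp0, another, stood at 693 and 1162 TPM against 1233 and 998 TPM. Of 34 protein-coding snoRNA hosts 21 had a higher mean with UVB (61.8%, median 0.13), beside 61% of all genes. Of these 34, 1 passed the filter only through the UVB libraries, so nothing is read from this share or median. In number 2, 25 of the 34 had a higher mean (73.5%, median 0.61), beside 53.4% of all genes. This list shares genes with that of the terminal oligopyrimidine starts, so the shares of these lists are not separate observations. Hspa8, a chaperone, was at 1999.6 and 2522 TPM in number 1 versus 1373 and 1072 TPM, non-UVB given first.

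Among 7 tested genes of a list of other long noncoding RNAs the UVB median was 0.32 log2, beside 0.26 for all genes. Of these 7, 1 passed the filter on low values only through the UVB libraries, so nothing is read from this median. Pvt1, a neighbour of Myc, was at 295 TPM in non-UVB 2 and at 0.0153, 0 and 1.30 TPM in non-UVB 1, UVB 1 and UVB 2. Mir22hg, the host of a microRNA, was at 69.2 and 92.0 TPM (number 1) versus 44.5 and 49.1 TPM (number 2), non-UVB given first. Neither passed the limma test in either comparison.

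The genes most like 3 of the 9 were sought among 3128 tested genes averaging 50 TPM or more, by the root mean square difference of centred log2(TPM + 1) over the 4 libraries. Over only 4 libraries such likeness is a description. Nearest to Malat1 were Dgat1 (0.11), Rnf125 (0.13) and Blmh (0.17), with Dgat1, an enzyme of triglyceride synthesis, at 449, 167, 391 and 611 TPM in the order non-UVB 1, UVB 1, non-UVB 2, UVB 2. Nearest to Gas5 were Gm10180 (0.05), Rps26 (0.07) and Ndufa2 (0.08), with the ribosomal protein gene Rps26 at 334, 199.9, 601 and 447 TPM. Nearest to Snhg4 were Tmem80 (0.26), the cysteinyl-tRNA synthetase gene Cars (0.42) and the phosphatase gene Ppm1b (1.15), with Tmem80 at 71.4, 0, 139 and 0.844 TPM.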

How the data were processed

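Per the labels' protocols, total RNA went into SMARTer ultra-low-input libraries, read from a single end over 100 bp. The tools named per the submitters' processing notes are DESeq2, HISAT2 and StringTie, and the build is GRCm38 (mm10). The sources used here give no version, role or annotation release. The authors deposited 1 table per library with TPM, FPKM and coverage per gene, per the file headers: TPM has an equal total in every library, FPKM is scaled to length and library, and the deposited coverage signal is mean depth per base, unscaled. The highest ratio of coverage to FPKM gave 3.41, 4.20, 2.47 and 2.38 gigabases in the order non-UVB 1, UVB 1, non-UVB 2, UVB 2, which is the depth of the values. A 1 kb gene with 1 read would have 0.0369 to 0.0612 TPM. No read numbers were used, so no counting interval is given. Read equivalents are coverage times exon bases over 100 and cover no amplification error.

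Rows of a gene ID were summed. Of 55487 IDs, GENCODE M21 supplied gene types and exon lengths where coordinates matched. The 10286 genes that reached 1 TPM in 2 or more libraries were tested with limma 3.58.1 in R 4.3.3 on log2(TPM + 1) with an intensity trend and Benjamini-Hochberg adjustment at 0.05. On this scale low genes appear to differ by less than they do. The step was tested on simulated data. Samples were grouped by their titles. Members, gene lists, the rule for named genes and tests were chosen with earlier results of these data known. Named were all 9 members, the 2 most abundant tested genes of each list, genes overlapping a member or starting within 2 kb of it, and the 3 genes most like Malat1, Gas5 and Snhg4. A gene that this rule names is not reported here. Outside this rule, Snhg17, Epb41l4aos, Foxp3 and Krt15 were named after their values had been seen, the last 2 from the marker lists. Alternatives changed pseudocount, filter, unit, scaling, which genes make up the TPM total, the model of spread and the replicate block, and left out each library.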

Additional observations from a re-analysis of the deposited data

How the results depend on the processing

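No gene had an adjusted p under 0.05 for UVB in limma under any setting tried, with 1167 at an unadjusted p under 0.05 as reported. The count was also 0 with the replicate number as a block, which changed no call. The labels do not say what a number marks, so libraries of the same number were not treated as pairs. The correlation of same-numbered deviations from the group means was 0.165 over 10286 genes. It rests on 2 pairs of libraries only and cannot decide whether they are paired. For the number comparison 0 genes passed under the settings tried except quantile normalization, where 13 did, and the smallest adjusted p among the 9 genes was 0.539. The count of the 9 genes with non-overlapping UVB and non-UVB libraries was 1 in TPM, where 32.9% of all tested genes did not overlap. It was 2 in coverage per gigabase, a unit added after seeing the data, where Snhg1 joined Snhg4. The share of all genes in that unit was not computed, so nothing is read from the count. By coverage the difference of Snhg4 was -3.89 log2. Over all settings the smallest adjusted p of Snhg4 for UVB was 0.136. Snhg4 gave no value without either non-UVB library, since it then failed the filter, and Snhg12 was not tested. When a library was left out, the lone library of its group was taken to have the spread of the other group.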
